A study of Arabidopsis thaliana with 4 samples.

Results

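The serine carboxypeptidase-like (SCPL) proteins of Arabidopsis thaliana were followed in seedlings treated with aluminium, through the genes that an Affymetrix ATH1 array measures one by one. The members were the genes whose symbol holds SCPL and a number in the probe table, and whose probe set the table pairs with that gene alone. This gave 29 genes, each with 1 probe set, out of 13286 genes named in the same way and 22746 plant probe sets in all. The reference gene table lists 51 numbered SCPL genes. Of the other 22, 3 (SCPL36, SCPL37 and SCPL39) lie on 2 probe sets shared with a further gene, and 19 were not analysed here. The rule used gene names and no measured value, but it was chosen with earlier results of these data known.

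SCPL proteins share the fold and the catalytic serine, aspartate and histidine of serine carboxypeptidases, which remove amino acids from the carboxyl end of proteins. Most carry a signal peptide and are secreted or sent to the vacuole. Part of the family does not cut proteins but moves acyl groups: SCPL8 (SNG1) makes sinapoylmalate, the ultraviolet screen of leaves, and SCPL19 (SNG2) makes sinapoylcholine in seeds, both from sinapoylglucose. The proteins numbered SCPL1 to SCPL19 are of this acyltransferase type by their likeness to those enzymes. Of the others, SCPL24 (BRS1) is known because its overexpression suppresses a weak mutant of the brassinosteroid receptor BRI1. Aluminium ions stop root growth in acid soil.

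Wild-type or mutant background, ecotype and age of the seedlings are not given in the sources used here. All seedlings were moved from agar plates to flasks of diluted Murashige and Skoog liquid with sucrose for 16 h. The treated ones received 50 µM aluminium and the controls were mock-treated. RNA from 100 pooled whole seedlings went onto each of 4 arrays, 2 per treatment, which the titles number 1 and 2 and the labels call biological replicates. The treatment text is the same on all 4 samples, and the titles set the groups. The number of arrays limits the precision, and an exact permutation test of 2 against 2 arrays cannot go below a two-sided p of 0.333.

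The values are linear intensities scaled so that each array has the same trimmed mean of 500. They differ between probe sets for reasons of probe sequence, so that levels were compared within a gene and not between genes. The 95th percentile of 27 bacterial control probe sets lay between 422 and 586 and served as a strict background level. It was exceeded by 10 SCPL genes on aluminium replicate 1, by 16 on each of aluminium replicate 2 and control replicate 1, and by 10 on control replicate 2. Of all plant probe sets, 35.1%, 42.0%, 45.3% and 39.8% exceeded it on the same arrays. The spiked hybridization controls were brightest on aluminium replicate 1, with a geometric mean of 131442. In the other aluminium array it was 11226, and in the controls it was 51057 for replicate 1 and 6339 for replicate 2. The values of SCPL genes on each array are given below in the order replicate 1, replicate 2.

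Of the defining markers of the organs, the probe table named 3 of 9 for the shoot, 3 of 7 for the root, 0 of 9 for the seed and 0 of 3 for pollen. The shoot markers RCA, PRK and LHCB4.1 read between 1275 and 12687 in controls and between 52.3 and 4897 with aluminium, and in each of them both aluminium values lay below both control values, as in 16.2% of all plant probe sets. None of these 3 passed limma (adjusted p = 0.966 each). The root markers PYK10, EXPA7 and EXPA18 ranged from 93.8 to 1056 in controls and from 56.1 to 1168 with aluminium, and their groups overlapped. In whole seedlings, fewer cells of a type and less RNA per cell cannot be told apart. The part of such shifts in the SCPL values was not tested.

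Whether SCPL transcripts respond to the metal was asked by comparing both treatments. None of the 29 genes passed limma over all plant probe sets at an adjusted p under 0.05, where 0% of all probe sets passed. The smallest adjusted p among them was 0.966. At an unadjusted p under 0.05 the count was 0 of 29 too, against 4.77% of all plant probe sets, and the smallest unadjusted p by limma was 0.147. Differences on the scale log2(intensity + 16), which understates changes of dim genes, ran from −1.32 for SCPL33 to 1.67 for SCPL50. The typical 95% interval reached 1.96 to each side, so that a change of several-fold in a single gene would not have been told from none. These results leave the response of single genes unresolved and do not show that the genes were unchanged.

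**Figure D1:**
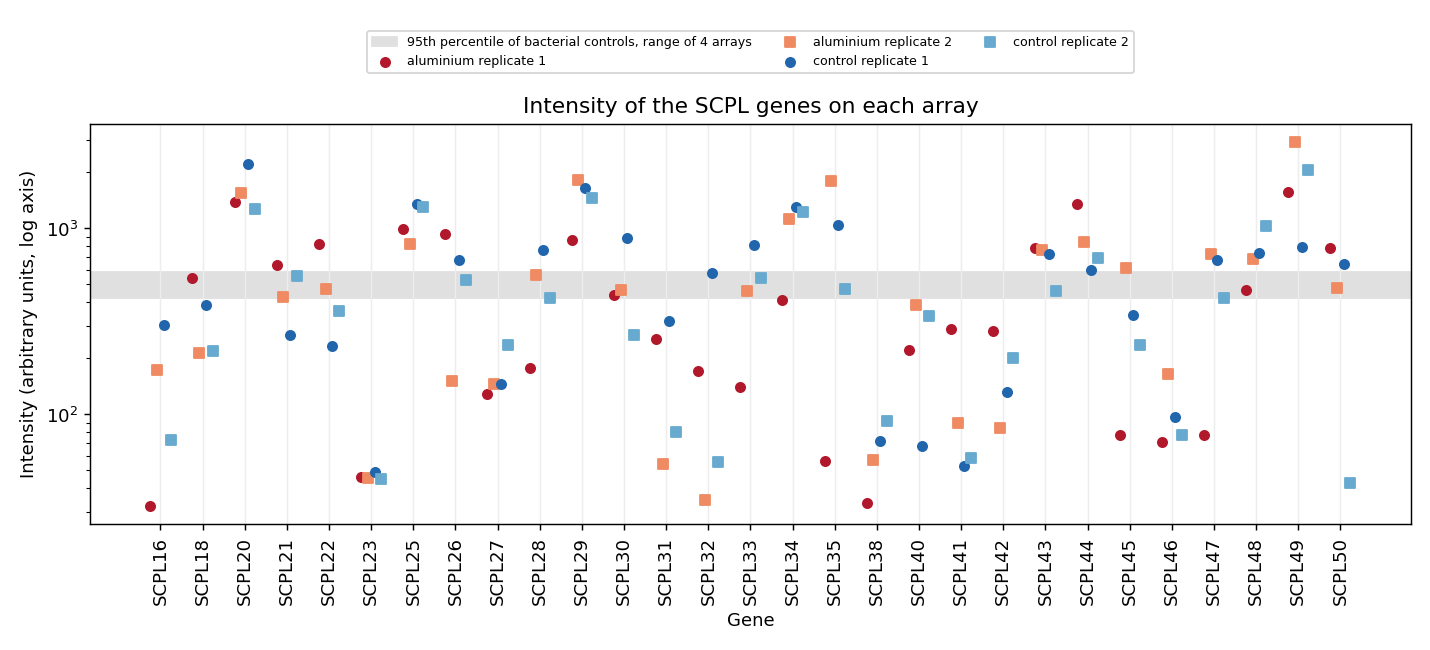
Intensity (log axis) of the 29 SCPL genes on each of the 4 arrays, with aluminium in red and orange and control in blue. The grey band spans the background level of the 4 arrays, 422 to 586, and the aluminium and control points are interleaved for 19 of the genes.

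The treatments did not overlap in 10 of the 29 genes, or 34.5%, against 32.7% of all plant probe sets. Of these, 4 were higher with aluminium (background 16.5%) and 6 were lower (background 16.2%). With a difference of at least 2-fold in addition, 2 genes were higher and 1 was lower, where 9.66% and 9.93% of all plant probe sets met the same rule. The share of SCPL genes with separate groups was thus near that of the whole array. The group mean was lower with aluminium in 19 of 29 genes, against 49.6% of all plant probe sets. The median difference was −0.30 over the SCPL genes and 0.01 over all plant probe sets.

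With 1 array left out in turn, between 9 and 14 of the 29 genes had a higher mean with aluminium. Of all plant probe sets, 49.7% to 51.4% did. The count of lower genes differed between the replicate numbers, which are not shown to pair the arrays. In the replicate 1 arrays alone 18 genes read lower with aluminium, with a median difference of −0.37, and in the replicate 2 arrays alone 12 genes did, with a median of 0.28. The sign was shared by both numbers in 15 of 29 genes, where 51.6% of all plant probe sets shared it. Across the 29 genes, the differences of replicate 1 and of replicate 2 had a Pearson's r of −0.26. Each difference comes from its own pair of arrays, and the genes are not independent replicates.

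**Figure D2:**
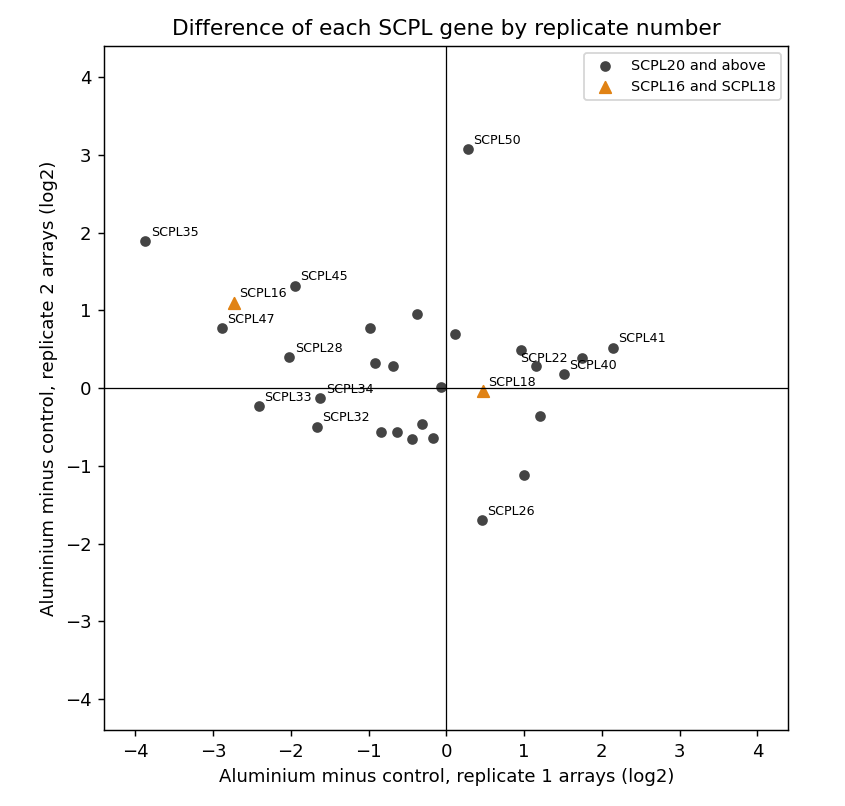
Difference of each SCPL gene between the aluminium and the control array of replicate 1 (x axis) and of replicate 2 (y axis), on the scale log2(intensity + 16). The 15 of 29 points at the lower left and upper right have the same sign in both numbers, and SCPL35 lies at −3.87 and 1.89.

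Among the acyltransferase-type genes, SCPL1 to SCPL19, 2 of 19 were measured. SCPL16 read 32.2 and 173.9 with aluminium, and the controls 304 and 72.7. Its groups overlapped, since the highest and the second lowest value were both controls. SCPL18 read 544 and 214 with aluminium, and the controls 387 and 219.5, so that both replicate 1 arrays were higher than both replicate 2 arrays. Both genes lay under the background level of the array on all 4 arrays. The difference was −0.82 for SCPL16 (95% interval −3.35 to 1.72) and 0.22 for SCPL18 (−1.73 to 2.17), with adjusted p by limma of 0.973 and 0.997. With 1 array left out, the difference ranged from −1.81 to 0.17 for SCPL16 and from −0.42 to 0.86 for SCPL18. The median of these 2 genes was −0.30, and that of the 27 measured genes from SCPL20 up was −0.30 as well.

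The sinapoyltransferases SNG1 (SCPL8), SNG2 (SCPL19), SCPL9 and SCPL10 were not analysed here, and neither was BRS1 (SCPL24). Of 21 genes that lead to sinapate esters, 6 were measured, of which 5 had a lower and 1 a higher mean with aluminium, and 0 passed limma. CCR2, a cinnamoyl-CoA reductase of lignin synthesis, had the largest difference there and read 83.7 and 51.2 with aluminium against control values of 27.2 and 1928. Its difference of −1.82 rests on control replicate 2 and is 0.92 without that array. UGT84A1, a glucosyltransferase that makes sinapoylglucose and similar esters, read 54.6 and 120.2 against 51.5 and 55.8, all under background. Its difference of 0.49 is 0.019 without aluminium replicate 2. REF1 (AT3G24503), the aldehyde dehydrogenase that forms sinapate and ferulate, differed by −0.13.

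Anthocyanin synthesis, whose pigments carry sinapoyl groups added by SCPL10, had 5 of 12 genes measured, 2 with a higher and 3 with a lower mean. UF3GT, a xylosyltransferase of anthocyanins despite its symbol, read 375 and 423 with aluminium against control values of 247 and 127, all under background. Its difference of 1.10 ranged from 0.65 to 1.54 when 1 array was left out. 5MAT, a malonyltransferase of anthocyanins, read 71.2 and 543 against 731 and 333, a difference of −1.21 that is 0.13 without aluminium replicate 1. Neither gene passed limma, with an adjusted p of 0.966 each.

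SCPL49 carries the synonym carboxypeptidase Y, after the vacuolar enzyme of yeast. It was above background on all 4 arrays, with 1568 and 2914 under aluminium and 799 and 2073 in controls. Within each replicate number the aluminium array was the brighter, but control replicate 2 exceeded aluminium replicate 1. Mean log2 values were 11.07 ± 0.63 (aluminium) and 10.35 ± 0.96 (control; SD, n = 2 each). They differed by 0.72, and the standard error was 0.81. By limma the adjusted p was 0.968. Without aluminium replicate 1 the difference of SCPL49 is 1.17 and without control replicate 1 it is 0.04.

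The 4 genes in which every aluminium value exceeded every control value were SCPL41, SCPL22, SCPL44 and SCPL43. SCPL41 read 287 and 90.0 with aluminium against control values of 52.6 and 58.0, all under the background level. The control arrays were close to each other, and the aluminium arrays were 3.19-fold apart. Mean log2 values were 7.48 ± 1.07 (aluminium) and 6.16 ± 0.08 (control; SD, n = 2 each). They differed by 1.33, and the 95% interval was −0.63 to 3.29. Without aluminium replicate 1 the difference of SCPL41 is 0.57 and without aluminium replicate 2 it is 2.09.

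SCPL22 read 822 and 474 with aluminium, and the controls 234 and 360. Both aluminium values lay above the background level of their array and both control values below it. For aluminium replicate 2 the margin was small, with a level of 457, and the level of control replicate 2 was 478. The difference was 1.06 with a standard error of 0.72, and it ranged from 0.68 to 1.45 when 1 array was left out. SCPL44 read 1347 and 846 against 597 and 695 and was above background on all 4 arrays. Its difference of 0.72 had an interval from −0.98 to 2.42, and ranged from 0.38 to 1.05 when 1 array was left out. SCPL43 read 789 and 763 with aluminium, with only a 1.03-fold gap between those arrays, and 731 and 464 in controls. Its difference of 0.40 is 0.084 without control replicate 2. The adjusted p by limma was 0.966 for SCPL41, SCPL22 and SCPL44 and 0.984 for SCPL43.

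The 6 genes lower on both aluminium arrays were SCPL33, SCPL34, SCPL38, SCPL48, SCPL25 and SCPL27. SCPL33 read 139.7 and 460.4 with aluminium against control values of 814 and 544. Aluminium replicate 1 stood far below the other arrays, while aluminium replicate 2 was close to control replicate 2. Mean log2 values were 8.09 ± 1.14 (aluminium) and 9.41 ± 0.40 (control; SD, n = 2 each). They differed by −1.32, and the interval was −3.36 to 0.71. Without aluminium replicate 1 the difference of SCPL33 is −0.52.

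SCPL34 showed the same layout, with 412 and 1120.2 against 1299 and 1230.2. Its difference of −0.88 is −0.17 without aluminium replicate 1, the array that reads lowest. SCPL38 read 33.4 and 57.1 with aluminium, and the controls 72.2 and 92.5, all under background, a difference of −0.70. SCPL48 read 469.7 and 689 against 735 and 1029, and its differences within replicate 1 (−0.63) and within replicate 2 (−0.57) were nearly equal.

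SCPL25 was above background on every array and had the most even values of these genes. It read 992 and 821 with aluminium, and the controls 1353 and 1299, so that the replicates were 1.21-fold and 1.04-fold apart. Mean log2 values were 9.84 ± 0.19 (aluminium) and 10.39 ± 0.04 (control; SD, n = 2 each). They differed by −0.55, and the standard error was as large as 0.67, since limma draws the spread of a gene towards that of all probe sets. SCPL27 read 128.5 and 145.4 against 146.5 and 235, where aluminium replicate 2 and control replicate 1 were almost equal. Its difference of −0.40 is −0.089 without control replicate 2. With 1 array left out, the difference ranged from −0.99 to −0.42 for SCPL38 and from −0.87 to −0.33 for SCPL48. The adjusted p by limma lay between 0.966 and 0.984 for the 6 genes.

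**Figure D3:**
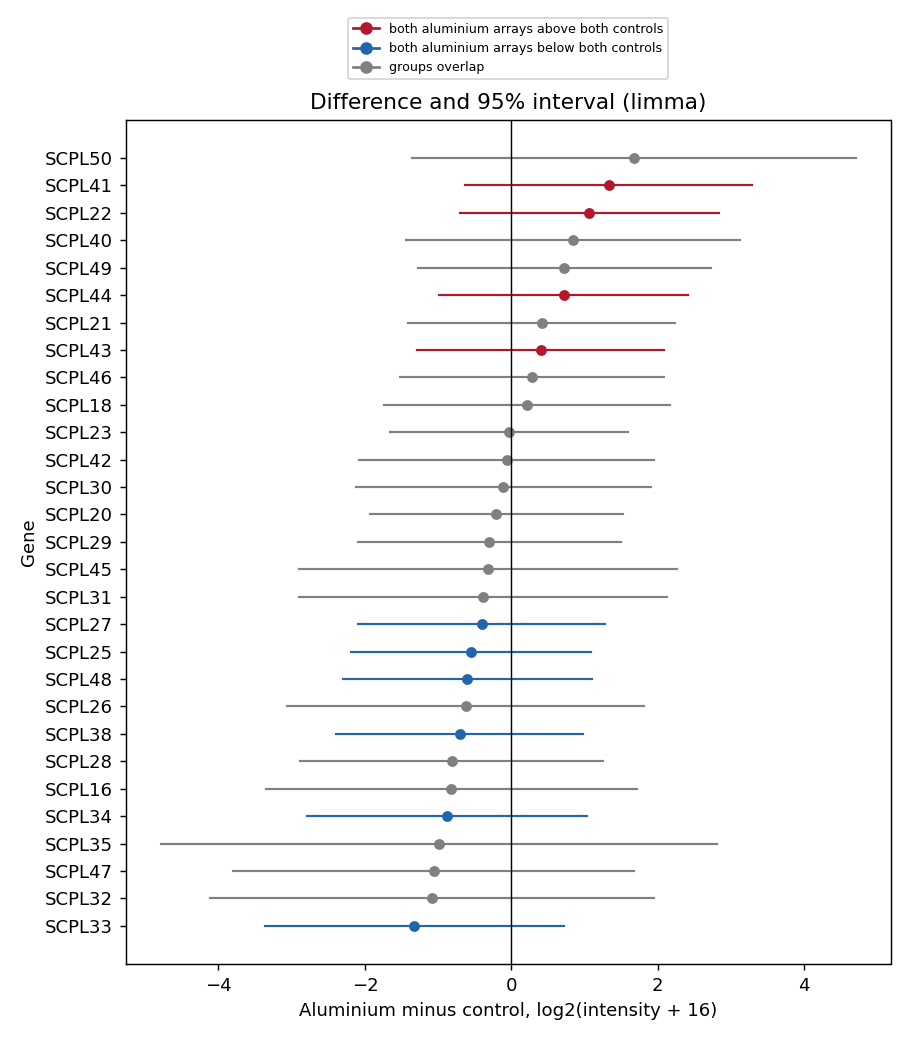
Difference between aluminium and control for each SCPL gene, with its 95% interval from limma, on the scale log2(intensity + 16). Red and blue mark the 4 and 6 genes whose groups do not overlap, and every interval includes 0.

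In the reference gene order of TAIR10.1, 3 pairs of measured SCPL genes lie next to each other or with at most 2 genes between them. SCPL22 and SCPL23 are direct neighbours on chromosome 2. SCPL22 had separate groups, whereas SCPL23 read 46.0 and 45.5 with aluminium, and the controls 49.0 and 45.0, a difference of −0.03. The values of SCPL23 were under background and within 1.09-fold of each other on all arrays, the narrowest of the 29 genes.

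SCPL26 and SCPL28 are also direct neighbours on chromosome 2. SCPL26 read 929 and 151 with aluminium against control values of 673 and 527, and SCPL28 read 177 and 559.6 against 765 and 421. The gaps between the aluminium arrays ran in opposite directions, with SCPL26 brighter on replicate 1 and SCPL28 on replicate 2. The differences were −0.62 for SCPL26 and −0.81 for SCPL28, and without aluminium replicate 2 that of SCPL26 is 0.63. The difference of SCPL28 is −0.022 without aluminium replicate 1.

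SCPL41 and SCPL42 lie on chromosome 5 with 2 genes between them. SCPL42 read 281 and 84.5 with aluminium against 133 and 202, under background on all 4 arrays. Its groups overlapped, with a difference of −0.06. The difference of SCPL42 changed sign between the replicate numbers, from 1.00 in replicate 1 to −1.12 in replicate 2, and it ranged from −0.84 to 0.72 with 1 array left out.

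The gap between replicate arrays was often wider than the difference between treatments. In 24 of 29 genes, or 82.8%, the larger of the gaps within a treatment exceeded the difference between aluminium and control, against 80.8% of all plant probe sets. The median absolute gap was 1.05 for the aluminium pair of arrays and 0.63 for the control pair, and the median absolute difference between treatments was 0.62. Aluminium replicate 1 gave the lowest of the 4 values in 12 of the 29 genes (41.4%), where it was lowest in 28.8% of all plant probe sets. The same array gave the highest value in 9 genes (31.0%), where it was highest in 31.8% of all plant probe sets. This is the array with the brightest hybridization controls. The part of that array in the lower SCPL means was not tested.

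**Figure D4:**
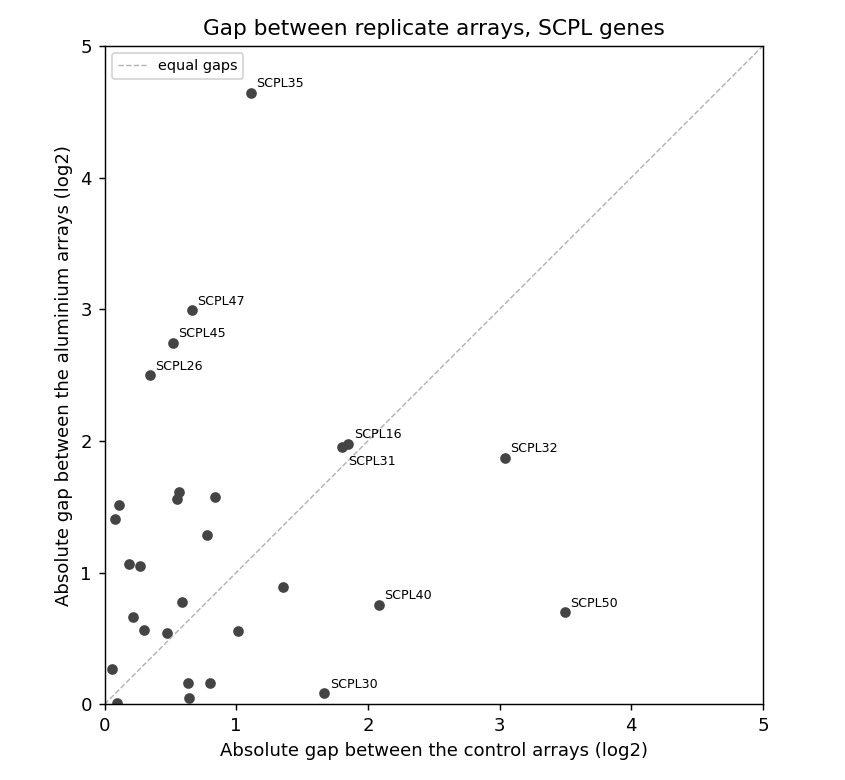
Absolute gap between the control arrays (x axis) and between the aluminium arrays (y axis) for each SCPL gene, on the scale log2(intensity + 16). SCPL35, SCPL47, SCPL45 and SCPL26 have a gap of at least 2 on this log2 scale between the aluminium arrays, and SCPL50, SCPL32 and SCPL40 between the controls.

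SCPL35 had the widest gap, with 56.5 and 1799 under aluminium, 31.8-fold apart, against 1044 and 475 in controls. It was the lowest on aluminium replicate 1 and the highest on aluminium replicate 2, so that the difference of −0.99 turns to 1.33 without aluminium replicate 1. SCPL47 read 78.0 and 731 against 679 and 423, and SCPL45 read 77.3 and 609.8 against 343 and 235. Both follow the layout of SCPL35, low on aluminium replicate 1 and highest on aluminium replicate 2. The differences of −1.06 for SCPL47 and −0.31 for SCPL45 turn to 0.44 and 1.06 without aluminium replicate 1.

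SCPL50 had the largest difference of the family, 1.67, with a 95% interval from −1.36 to 4.71. It read 787 and 478 with aluminium, and the controls 648 and 42.9. A single control array thus stood 15.1-fold below the other, and without control replicate 2 the difference of SCPL50 is −0.075. SCPL32 read 170.25 and 34.9 against 575 and 55.8, low on both replicate 2 arrays, and its difference of −1.08 is 0.44 without control replicate 1. SCPL40 read 223 and 387 with aluminium, and the controls 67.8 and 339.8, and its difference of 0.84 is −0.20 without control replicate 1. SCPL31 read 254 and 53.9 against 319.9 and 80.1, again higher on both replicate 1 arrays, with a difference of −0.39 that ranged from −1.36 to 0.59 with 1 array left out.

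The other 5 genes had overlapping groups and differences between −0.30 and 0.42. SCPL20 was above background on all arrays, with 1381 and 1546 under aluminium and 2230.05 and 1270.4 in controls, a difference of −0.20. SCPL29 was also above background throughout, with 864 and 1825 against 1651 and 1453, and only aluminium replicate 1 stood apart from the other 3 arrays. SCPL30 read 439 and 467 with aluminium, between the 884 and 267 of the controls. SCPL21 read 638 and 429.7 against 268 and 557, a difference of 0.42, and SCPL46 read 71.1 and 164.6 against 96.9 and 77.6, under background on every array. In each of these 5 genes the sign of the difference turned with 1 array left out, and the range was widest for SCPL30, from −0.94 to 0.73.

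The sign of the difference held with each of the 4 arrays left out in turn in 12 of the 29 SCPL genes, against 45.6% of all plant probe sets. These were SCPL28, SCPL49 and the 10 genes with separate groups. With separate groups the sign cannot turn when 1 array is left out, so that for those 10 genes this adds no further check. Across the 29 genes, which are not independent replicates, Pearson's r of the log2 intensities was 0.48 within aluminium and 0.68 within control. For pairs of arrays of different treatment the lowest r was 0.51 (replicate 1 of both) and the highest 0.82 (replicate 2 of both). The aluminium arrays thus had a lower r in these genes than any of the other pairs. Over all plant probe sets r was 0.58 within aluminium and 0.67 within control. There the lowest r of all pairs was 0.53 (replicate 1 of both treatments) and the highest 0.77 (replicate 2 of both).

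Of 12 other vacuolar or secreted proteases listed beside the family, 6 were measured, 3 with a higher and 3 with a lower mean, and 0 passed limma. The vacuolar processing enzymes cut precursors after asparagine, and GAMMA-VPE is a vegetative form of them. It read 1954 and 1578 with aluminium, and the controls 2802 and 344, a difference of 0.81 that is −0.67 without control replicate 2. DELTA-VPE, known from the seed coat, read 39.5 and 244 against 204 and 399.7, a difference of −1.33 that is −0.22 without aluminium replicate 1. Groups were separate in 2 of the 6 genes, or 33.3%, against 32.7% of all plant probe sets.

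Of 18 brassinosteroid genes, listed because of BRS1, the probe table paired 1, BRL1, with a probe set of its own, and the others were not analysed here. BRL1 is a receptor of the BRI1 family and read 165 and 300.4 with aluminium against control values of 30.2 and 34.6, all under the background level. Both aluminium values were several times both control values. The difference was 2.31 with a standard error of 0.70 and a 95% interval from 0.58 to 4.03, and it was not past the threshold (limma adjusted p = 0.966). Its unadjusted p by limma was 0.017, and 4.77% of all plant probe sets had one under 0.05.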

How the data were processed

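Affymetrix ATH1 arrays of 4 seedling pools were used. The deposited intensity values, one per probe set and array, are linear, with a trimmed mean of 500 on each array, so that the authors had scaled the arrays. Per the submitters' notes, GCOS and RMA were used, without saying for which step. Of 22810 probe sets, 64 controls were left out of the test. The probe table paired 13513 of the 22746 plant probe sets with 1 gene, 503 with several and 8730 with none, and all 29 SCPL genes were matched by Entrez identifier to TAIR10.1, used for names and gene order. Symbols are given in capitals.

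Values were tested as log2(intensity + 16) with limma 3.58.1 in R 4.3.3, with group as the one term and Benjamini-Hochberg adjustment over all plant probe sets (threshold 0.05). No dim probe set was left out. The test was checked on simulated data, where changes had to be recovered only at a smaller spread than that of these arrays. The check does not show the power of the test here. Plots used matplotlib 3.10.9 in Python 3.11.15. The members and lists were chosen with earlier results of these data known. All measured SCPL genes are named, and in each list the 2 genes with the largest difference, all 3 in the organ marker lists. REF1 was added once its value was known. Sequences of the genes were not used here.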

Additional observations from a re-analysis of the deposited data

Results flagged for a closer look

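The groups hold 2 arrays each, too few for a test of single outlying arrays. The probe set shared by SCPL36 and SCPL37 lies outside the comparison, and its mean over the aluminium arrays, 47.7, exceeded the higher control array. Its aluminium values were 67.5 and 27.9 and its control values 29.5 and 32.1, all under the background level, so that only aluminium replicate 1 stood above the controls. The hybridization controls, whose geometric mean averaged 71334 over the aluminium arrays, exceeded the 51057 of the brighter control array, and this too came from aluminium replicate 1.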

How the results depend on the processing

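The 29 SCPL differences kept their sign and stayed short of the threshold with pseudocounts of 1 and 64, quantile normalization, median centring, the replicate number as a block and a spread that follows the mean. Without the dimmest 25% or 50% of probe sets 23 and 17 of the genes could be tested, with the same outcome. The count past the threshold was 0 of the SCPL genes tested under each of these, and 0 of the plant probe sets tested too. The fit whose spread follows the mean was also made robust to outlying spreads. Its smallest adjusted p by limma over all plant probe sets was 0.095. At a threshold of 0.1, applied to the main fit only, the count was 0 for the SCPL genes and for all plant probe sets. At an unadjusted p under 0.05 it was 2 SCPL genes (6.90%) without aluminium replicate 2, where 11.1% of all plant probe sets passed, and 1 (3.45%) without control replicate 1, where 2.71% did. It was 0 under the other settings. With the replicate block the smallest adjusted p of an SCPL gene was 0.899 and the block changed no call. Same-numbered arrays deviated together with an r of 0.09 over all plant probe sets, and with 2 pairs this does not show that the numbers pair the arrays.

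Groups were separate in 9 genes with median centring. Without the dimmest 25% and 50% of probe sets they were separate in 7 of 23 and 7 of 17 genes. The share of all plant probe sets is not given for these settings. The number of genes with separate groups ranged from 14 to 22 when 1 array was left out, where fewer comparisons can overlap. It was 22 (75.9%) without aluminium replicate 1 and without aluminium replicate 2, against 64.5% and 72.8% of all plant probe sets. Leaving out control replicate 1 gave 14 (48.3%, against 62.0% of all plant probe sets), and leaving out control replicate 2 gave 20 (69.0%, against 66.1%). The median of SCPL16 and SCPL18 ranged from −0.96 to 0.36 then, and was 0.22 without the dimmest 25%, where only SCPL18 was left. That of the other SCPL genes ranged from −0.39 to −0.02. In the arrays of replicate 1 alone, added after the data were seen, the median of SCPL16 and SCPL18 was −1.13, and in those of replicate 2 it was 0.53, with 0.28 for the other genes.

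With 1 array left out in turn, the sign turned in 17 SCPL genes. Their differences then ranged from −1.81 to 0.17 for SCPL16, −0.42 to 0.86 for SCPL18, −0.60 to 0.20 for SCPL20, −0.087 to 0.93 for SCPL21, −0.075 to 0.016 for SCPL23, −1.87 to 0.63 for SCPL26, −0.83 to 0.23 for SCPL29, −0.94 to 0.73 for SCPL30, −1.36 to 0.59 for SCPL31. The others ranged from −2.60 to 0.44 for SCPL32, −3.31 to 1.33 for SCPL35, −0.20 to 1.89 for SCPL40, −0.84 to 0.72 for SCPL42, −1.69 to 1.06 for SCPL45, −0.24 to 0.81 for SCPL46, −2.56 to 0.44 for SCPL47, −0.075 to 3.42 for SCPL50. Of the genes named beside the family, the sign turned for CCR2 (range −4.57 to 0.92), 5MAT (−2.55 to 0.13) and GAMMA-VPE (−0.67 to 2.30). It also turned for the root markers EXPA7 (−1.37 to 0.46) and EXPA18 (−2.38 to 1.66). The cause of these reversals was not tested beyond the array that each leaves out. Signal over background limits the 10 SCPL genes that never exceeded the background level.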
